A study of Mus musculus with 4 samples.

Results

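Lysosomal hydrolases, lysosomal membrane proteins and their regulators were followed in colony-forming adherent cells of the mouse spleen, called SACCs, and in monolayered spleen cells, the controls. The list named 46 genes, chosen by exact gene symbol, and 45 of them were measured, with 97 probe sets, out of 19761 genes with a single symbol on the arrays. Cd63 was not analysed here. Each gene was represented by the probe set with the highest mean over 4 arrays. The cells of both groups grew out of spleen pieces from C57BL/6J mice, whose age and sex the labels do not state. SACC replicate 1 formed compact colonies and was kept in a serum-free medium for embryonic stem cells (ES medium). SACC replicate 2 also formed compact colonies and was kept in plain medium. Control replicates 1 and 2 were monolayered cells in plain medium. The labels name control replicate 1 as the reference of SACC replicate 1 (the ES pair) and control replicate 2 as the reference of SACC replicate 2 (the plain pair), so in the ES pair the medium differs together with the cell state. SACCs are defined by colony shape and not by a sorted cell type, and no label says that different animals or cultures were used for the arrays. The p-values rest on how far the ratios of the 2 pairs differ, combined with the variance over all probe sets. That spread may be technical, and in the SACCs the medium differs between the pairs.

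Lysosomes are acidic organelles in which hydrolases break down proteins, glycans and lipids taken up from outside the cell or delivered by autophagy. A proton pump acidifies the lumen, heavily glycosylated membrane proteins line it, and the transcription factor TFEB with its relative TFE3 drives many lysosomal genes through a DNA element built around the letters CACGTG. In the spleen the compartment is best known from macrophages, which digest aged red cells and debris, while fibroblasts also carry lysosomes.

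Most lysosomal genes were lower in SACCs than in monolayer cells. Of the 45 genes, 36 were lower in both pairs, against 34.7% of all genes, and 3 were higher in both pairs, against 30.4% of all genes. The median log2 ratio of SACC minus control, where -1 is a level 2-fold lower, was -0.57 for the ES pair and -0.72 for the plain one. Over all genes the medians were -0.01 and -0.02. On both SACC arrays 34 genes lay below both controls, as did 19.5% of all genes, and 3 lay above both controls, as did 18.3%. In a limma fit that blocked on the pair, with p-values adjusted by Benjamini-Hochberg across the 45037 probe sets, 3 genes fell (background 1.04% of all genes) and none rose (background 0.936%). The 3 were Gpnmb, Cd68 and Lipa. Counted over probe sets, the background was 0.662% lower and 0.642% higher. At an unadjusted p under 0.05, limma had 30 lower (background 8.78%) and 2 higher (background 12.1%). All 45 genes lay above the array median on all 4 arrays. Among the genes that did so, 31.3% were lower in both pairs, 19.1% had both SACC arrays below both controls, 1.7% fell and 1.19% rose. The calls lay at the edge of the threshold, since the smallest adjusted p of any probe set was 0.0476, and no lysosomal gene passed when each array was centred on its median or without the pair block. In these bulk samples fewer cells of a type and less RNA per cell cannot be told apart.

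Macrophage markers moved in the same direction. Of 20 macrophage markers 17 were lower in both pairs and 8 fell in limma, with medians of -1.82 and -2.06. Their summed linear level was 28573 and 33846 on the SACC arrays, against 86226 and 87269 on the control arrays. Of the 20, 18 lay above the array median on all 4 arrays, Marco on 3 and Cd163 on 1. Marco was the only macrophage marker higher in both pairs, with ratios of 0.93 and 2.72. Fibroblast markers were higher in both pairs for 17 of 18 and rose in limma for 4, at medians of 1.4 and 1.66, with summed linear levels of 106375 and 89080 on the SACC arrays, against 46598 and 31190 on the control arrays. Smooth muscle markers were higher in both pairs for 8 of 8, at medians of 1.54 and 0.56, and Rgs5 rose. Of 7 dendritic cell markers 4 were lower in both pairs and none passed in limma (1 lower at an unadjusted p under 0.05, background 8.78%). Only 2 of the 7 lay above the array median on all 4 arrays, and 3 lay above it on none. The lowest ratios were those of Itgax, which macrophages also carry, at -3.03 and -4.9 (limma adjusted p 0.0601). The part of any of these cell types in the lysosomal differences was not tested. The summed linear level of the 45 lysosomal genes was 81950 and 84499 on the SACC arrays, against 127314 and 143022 on the control arrays.

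**Figure D1:**
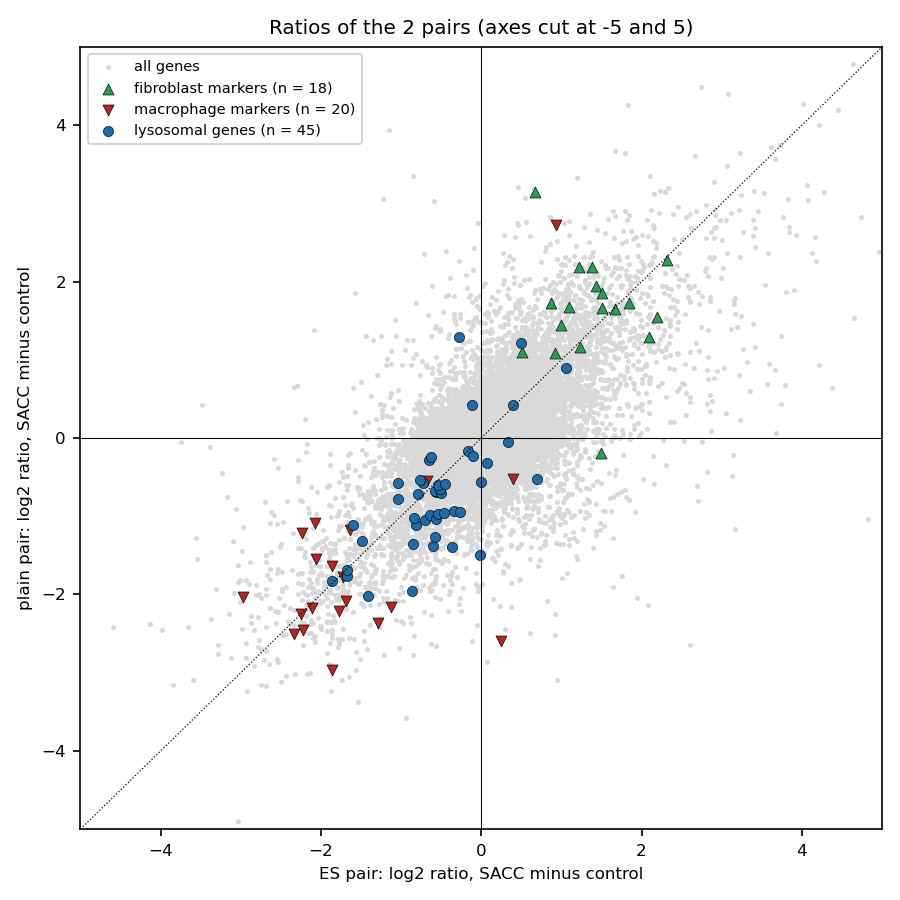
Each point is a gene, with its log2 ratio of SACC minus control in the ES pair on the x axis and in the plain pair on the y axis. Of all genes 8 lie outside the axes. The lysosomal genes (blue, n = 45) gather below 0 on both axes, with medians of -0.57 and -0.72, between most macrophage markers (red, n = 20) and the fibroblast markers (green, n = 18).

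Promoter windows are shown here because TFEB acts on lysosomal genes through such DNA. RefSeq windows (GRCm38.p6, 250 bases before to 50 after the start of a gene) were given for 40 of the 46 genes, in 48 windows, and none was given for Ctsb, Ctsh, Npc1, Asah1, Galns and Atp6v1h. The letters CACGTG, which read the same on both strands, stood in a window of 11 of the 40 genes (27.5%), against 8.09% of 27025 genes and 7.15% of all windows. The longer TCACGTGA, which contains the first, stood in 4 of 40 (10%), against 1.12% of genes and 0.974% of windows. The 11 genes with CACGTG had mean ratios between -1.4 (Sgsh) and 0.86 (Gaa), with a median of -0.57. The 28 measured genes with a window that lacked it had a median of -0.65, with a range of -1.84 (Gpnmb) to 0.98 (Scarb2). Windows of 4 genes follow, 5′ to 3′ on the strand of the gene, with each CACGTG in capitals. Ctsa holds 2 matches, both within TCACGTGA, at chr2:164833523-164833822 on the plus strand, and its other window holds none. Lamp1 holds 4, the most of any of the genes, at chr8:13158911-13159210 on the plus strand. Gpnmb, at chr6:49036268-49036567 on the plus strand, and Lipa, at chr19:34527425-34527724 on the minus strand, are shown as genes that fell and hold none.
Ctsa: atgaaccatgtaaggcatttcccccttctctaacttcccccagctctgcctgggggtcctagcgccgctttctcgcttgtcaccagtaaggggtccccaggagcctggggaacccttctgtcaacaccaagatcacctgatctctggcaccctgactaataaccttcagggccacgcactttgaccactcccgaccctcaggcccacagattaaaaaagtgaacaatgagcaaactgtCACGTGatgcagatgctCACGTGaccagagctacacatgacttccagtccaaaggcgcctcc
Lamp1: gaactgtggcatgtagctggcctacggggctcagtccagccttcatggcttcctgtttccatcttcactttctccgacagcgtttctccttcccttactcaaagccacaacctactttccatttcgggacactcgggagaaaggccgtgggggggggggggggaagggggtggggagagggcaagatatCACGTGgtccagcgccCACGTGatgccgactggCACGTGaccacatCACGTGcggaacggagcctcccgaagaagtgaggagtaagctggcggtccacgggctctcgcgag
Gpnmb: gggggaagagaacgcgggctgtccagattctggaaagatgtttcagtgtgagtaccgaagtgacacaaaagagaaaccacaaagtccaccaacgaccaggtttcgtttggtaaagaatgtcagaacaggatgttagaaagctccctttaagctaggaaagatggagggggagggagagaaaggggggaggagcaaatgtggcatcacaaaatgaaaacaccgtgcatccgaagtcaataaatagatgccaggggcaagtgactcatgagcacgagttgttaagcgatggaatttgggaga
Lipa: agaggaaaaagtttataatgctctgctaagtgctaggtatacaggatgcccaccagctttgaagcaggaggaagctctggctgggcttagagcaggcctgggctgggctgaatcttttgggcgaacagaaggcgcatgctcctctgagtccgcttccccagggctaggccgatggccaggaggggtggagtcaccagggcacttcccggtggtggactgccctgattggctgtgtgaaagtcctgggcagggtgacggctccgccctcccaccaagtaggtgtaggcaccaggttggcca

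The lysosomal membrane proteins held both the lowest and the highest ratios of the list. Gpnmb, a transmembrane glycoprotein of lysosome-related organelles that macrophages make in quantity, was at 10.85 and 11.7 in SACCs of the ES and plain pair, against 12.71 and 13.53 in their controls, on the log2 scale. Both SACC values were below both controls, and Gpnmb fell 3.59-fold, with a mean ratio of -1.84 ± 0.16 (SE, n = 2 pairs; limma adjusted p 0.0476). Cd68, a macrophage glycoprotein of the LAMP family, was at 10.01 and 11.18 in SACCs, against 11.68 and 12.95 in controls. Cd68 fell 3.29-fold (-1.72 ± 0.16, SE, n = 2 pairs; limma adjusted p 0.0476), and the groups did not overlap. With 1 array left out, which sets arrays of different tables against each other, the ratio of Cd68 was -1.14 without SACC replicate 1, -2.31 without SACC replicate 2, -2.36 without control replicate 1 and -1.08 without control replicate 2. It stayed negative each time and no longer passed in limma. The plain pair was the higher for both genes in SACCs and in controls alike, across tables that appear normalized separately.

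Other membrane proteins had ratios nearer 0 or above it. Lamp1, a main glycoprotein of the lysosomal membrane, had ratios of -0.65 and -0.28, and the calcium-conducting channel Mcoln1 of -0.1 and -0.23. Lamp2, the close relative of Lamp1, was at 11.71 and 11.52 in SACCs, against 11.82 and 11.1 in controls, so that the groups overlapped and the pairs differed in sign. Of the 4 probe sets of Lamp2, 2 had mean ratios of 0.16 and 2 of -0.5 and -0.49. Scarb2, the receptor that carries glucocerebrosidase to lysosomes, had the highest mean ratio of the 45 genes. It was at 11.94 and 11.84 in SACCs, against 10.88 and 10.94 in controls, 1.97-fold higher (0.98 ± 0.16, SE, n = 2 pairs), which did not pass in limma (adjusted p 0.0894). Both SACC values lay above both controls, and its other probe set had ratios of 1.6 and 0.73.

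**Figure D2:**
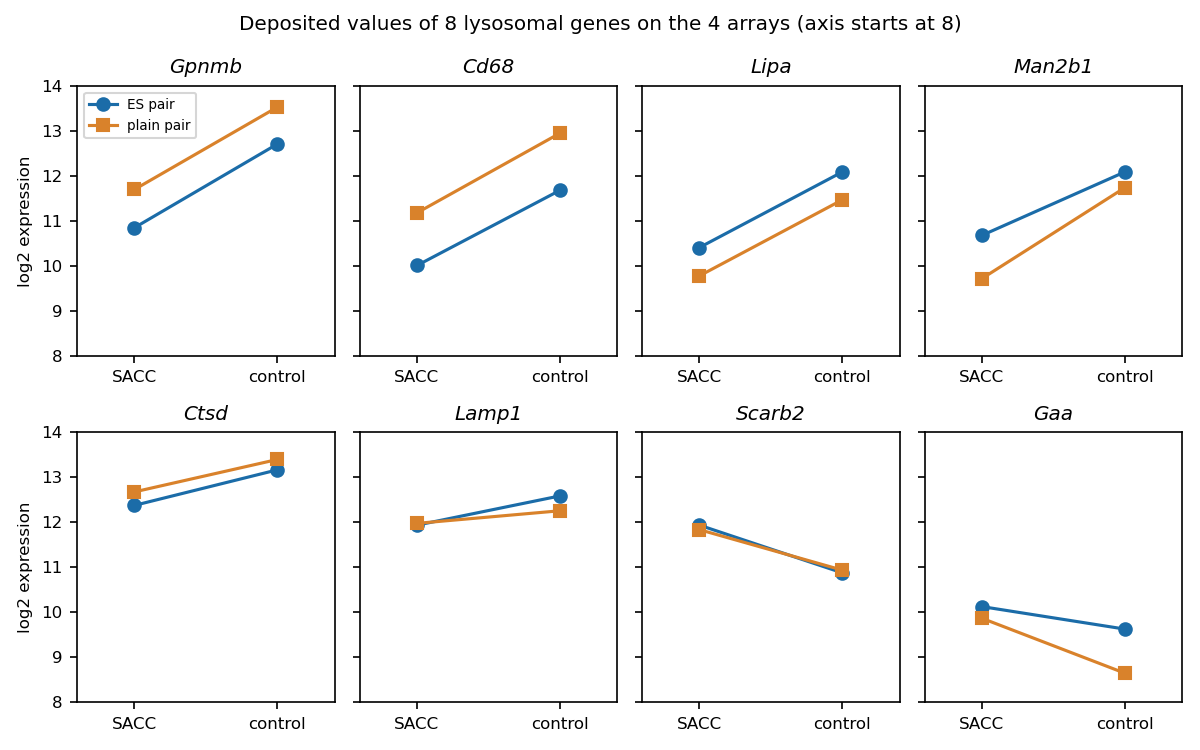
Deposited log2 expression (y axis, from 8) of 8 lysosomal genes, with SACC at the left and control at the right of each panel, 1 point per array and a line for each pair. Gpnmb, Cd68, Lipa and Man2b1 are lower in SACCs by 1.41 or more in every pair, Ctsd and Lamp1 by less, and Scarb2 and Gaa are higher.

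Proteases were lower without exception. Ratios were negative in both pairs for all 9, and their medians were -0.58 and -0.93. None passed limma's test, although all 9 had an unadjusted p under 0.05 (background 8.78% of all genes lower). The ratios were -0.85 and -1.36 for legumain (Lgmn), which cuts after asparagine, and -0.82 and -1.11 for Ctsa, the carboxypeptidase that stabilises sialidase. The aspartic protease Ctsd had ratios of -0.79 and -0.72. Among the cysteine cathepsins these were -0.57 and -1.04 for Ctsh, -0.34 and -0.93 for Ctsc, -0.58 and -0.68 for Ctsz and -0.45 and -0.59 for Ctsl. The tripeptidyl peptidase Tpp1 had -0.46 and -0.96. Both SACC values lay below both controls for 8 of the 9 (background 19.5% of all genes), the exception being Ctsz.

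Cathepsin B, Ctsb, depended on the probe set. Its brightest probe set was at 13.19 and 13.27 in SACCs, against 13.95 and 13.81 in controls, with a mean ratio of -0.65 ± 0.17 (SE, n = 2 pairs; limma adjusted p 0.18). These values lie close to the highest of any probe set on the arrays, 14.11 to 14.24. A dimmer probe set was at 8.95 and 9.38 in SACCs, against 11.47 and 11.75 in controls. It fell, with a mean ratio of -2.44 (limma adjusted p 0.0476), as did another, at 9.96 and 10.57 in SACCs, against 12 and 12.65 in controls (-2.06, limma adjusted p 0.0476). All 5 probe sets of Ctsb were lower. Ctsl showed a like gap, with -0.52 for the brightest probe set, at 12.92 and 13.13 in SACCs, against 13.37 and 13.72 in controls. Its dimmer probe set had ratios of -1.63 and -2.62 (limma adjusted p 0.0693). The part of signal near the top of the range in these gaps was not tested, nor was that of transcript ends.

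**Figure D3:**
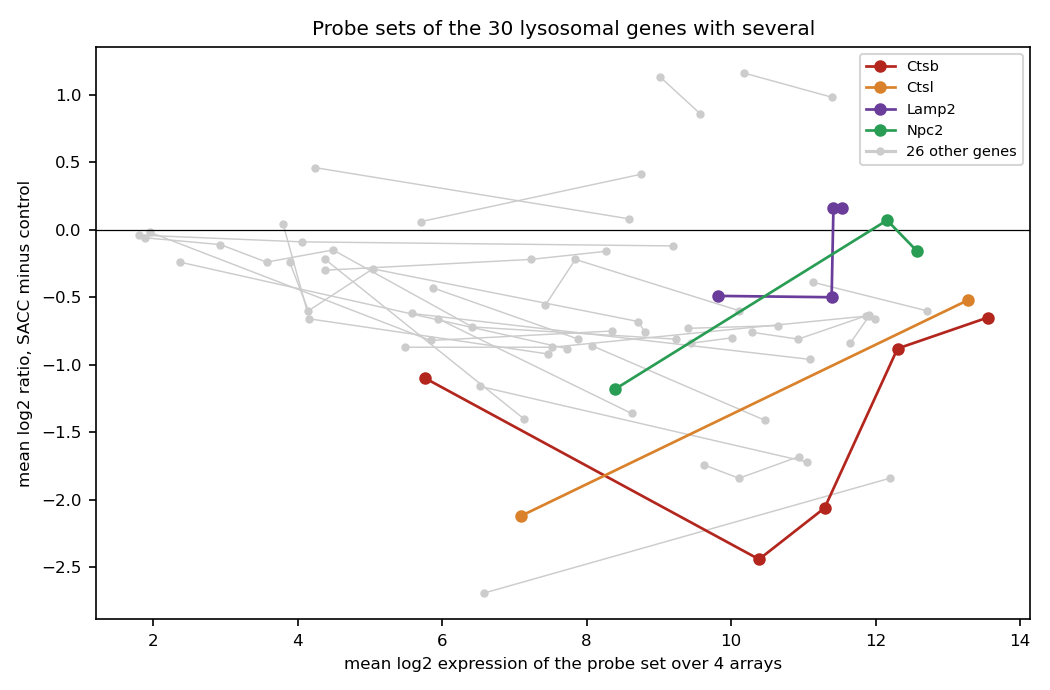
Each point is a probe set of the 30 lysosomal genes with more than 1, with its mean log2 expression over 4 arrays on the x axis and its mean log2 ratio on the y axis, and lines join the probe sets of a gene in order of expression. Ctsb runs between -2.44 and -0.65 and Ctsl between -2.12 and -0.52, each with the ratio nearest 0 at the brightest probe set.

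Glycosidases, which trim sugars from glycoproteins, glycolipids and glycosaminoglycans, were lower in both pairs for 8 of 11. Their medians were -0.54 and -0.94, and none passed in limma. Man2b1, lysosomal alpha-mannosidase, was at 10.68 and 9.72 in SACCs, against 12.09 and 11.74 in controls, with no overlap. Its mean ratio of -1.72 ± 0.22 (SE, n = 2 pairs), 3.28-fold lower, had a limma adjusted p of 0.0614. Beta-glucuronidase, Gusb, was at 9.86 and 9.66 in SACCs, against 10.72 and 11.62 in controls, so its ratios were -0.86 and -1.96. The alpha subunit of beta-hexosaminidase, Hexa, had ratios of -1.04 and -0.78, the sialidase Neu1 -0.58 and -1.27, alpha-iduronidase (Idua) -0.64 and -0.98, the fucosidase Fuca1 -0.26 and -0.94 and Naglu, which acts on heparan sulfate, -0.54 and -0.6. Alpha-galactosidase, Gla, was at 8.09 and 7.87 in SACCs, against 8.1 and 9.36 in controls, with ratios of -0.01 and -1.49. Beta-mannosidase, Manba, had ratios of 0 and -0.56.

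The exception among glycosidases was Gaa, the acid alpha-glucosidase that degrades glycogen in lysosomes. It was at 10.13 and 9.87 in SACCs, against 9.63 and 8.65 in controls. Both SACC values lay above both controls, with a mean ratio of 0.86 ± 0.24 (SE, n = 2 pairs) that did not pass in limma (adjusted p 0.206), and a second probe set had ratios of 0.99 and 1.27. Beta-galactosidase, Glb1, was at 9.19 and 8.79 in SACCs, against 8.86 and 8.84 in controls, so the groups overlapped.

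Sulfatases were lower in both pairs for 3 of 4, at medians of -0.7 and -0.95, with none past limma's test. Sgsh, which removes sulfate from heparan sulfate, was at 6.64 and 6.22 in SACCs, against 8.13 and 7.54 in controls (-1.4 ± 0.16, SE, n = 2 pairs; limma adjusted p 0.0545). Iduronate sulfatase, Ids, had ratios of -1.04 and -0.58. Galns, a sulfatase of keratan sulfate, was at 7.39 and 7.18 in SACCs, against 7.75 and 8.57 in controls, with no overlap. Arsb, a sulfatase of dermatan sulfate, was at 8.93 and 8.34 in SACCs, against 8.23 and 8.87 in controls, above its own control in the ES pair but below it in the other one.

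Of the 8 genes of lipid breakdown and export 7 were lower in both pairs (medians -0.62 and -1), and 1 fell. Lipa, the acid lipase that frees cholesterol and fatty acids from lipoproteins, was at 10.41 and 9.78 in SACCs, against 12.09 and 11.47 in controls. Lipa fell 3.22-fold, with nearly the same ratio in both pairs (-1.68 and -1.69) and a mean of -1.68 ± 0.16 (SE, n = 2 pairs; limma adjusted p 0.0482). Its other 2 probe sets had mean ratios of -1.84 and -1.74, and their pairs were further apart. The ratios in the ES and plain pair were -1.09 and -2.59 for the first and -1.26 and -2.22 for the second. Neither passed in limma (adjusted p 0.145 and 0.0898). The lysosomal phospholipase Pla2g15 was at 8.03 and 7.86 in SACCs, against 9.63 and 8.97 in controls, with a limma adjusted p of 0.0752 for a mean ratio of -1.36 ± 0.2 (SE, n = 2 pairs).

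The cholesterol exporter Npc1 had ratios of -0.84 and -1.02, while Npc2, the soluble protein that hands cholesterol to it, had -0.16 and -0.17. The 3 probe sets of Npc2 had mean ratios of -0.16, 0.07 and -1.18. Acid ceramidase (Asah1) had ratios of -0.7 and -1.05, the thioesterase Ppt1 -0.54 and -0.97, and Psap, the precursor of the saposins that help sphingolipid hydrolases, -0.5 and -0.7. Smpd1, acid sphingomyelinase, was higher in both pairs. It was at 8.99 and 8.92 in SACCs, against 8.59 and 8.5 in controls, with no overlap and a mean ratio of 0.41 ± 0.16 (SE, n = 2 pairs; limma adjusted p 0.318). The dimmer probe set of Smpd1 had ratios of -0.05 and 0.18, and its groups overlapped.

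**Figure D4:**
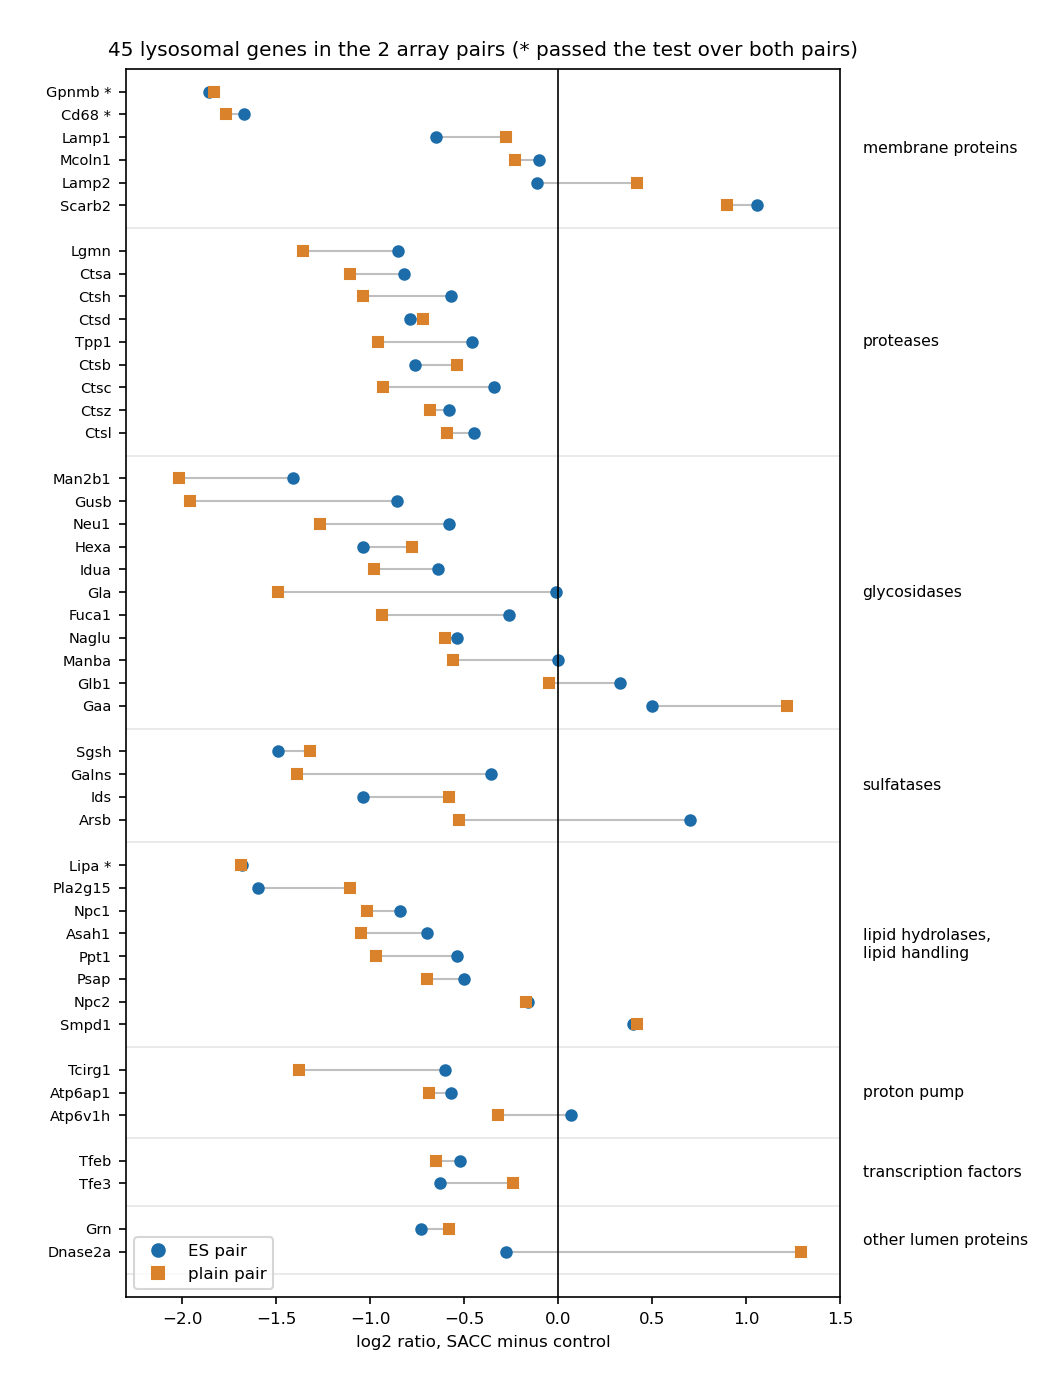
Log2 ratios of SACC minus control for the 45 lysosomal genes, grouped by role, with a circle for the ES pair and a square for the plain pair. In both pairs 36 genes lie left of 0 and 3 right of it (Scarb2, Gaa and Smpd1), and stars mark Gpnmb, Cd68 and Lipa, which passed limma's test.

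The 3 listed parts of the proton pump included 2 that were lower in both pairs. Tcirg1, a membrane subunit abundant in osteoclasts and macrophages, had ratios of -0.6 and -1.38, the accessory protein Atp6ap1 -0.57 and -0.69, and the regulatory subunit Atp6v1h 0.07 and -0.32. Both transcription factors were lower in both pairs, Tfeb with ratios of -0.52 and -0.65 and Tfe3 with -0.63 and -0.24, and neither passed in limma (adjusted p 0.2 and 0.363). Grn, the precursor of granulins in the lysosomal lumen, had ratios of -0.73 and -0.58. Dnase2a, the acid DNase that digests engulfed DNA, was at 8.18 and 7.41 in SACCs, against 8.46 and 6.12 in controls, so the groups overlapped and the pairs differed in sign.

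Other genes of the pathway were counted in the same way, and no test set these lists against the 45 genes. Of 31 further lysosomal enzymes 16 were lower and 7 higher in both pairs, with medians of -0.3 and -0.5. Galc, which degrades galactosylceramide, fell 3.82-fold (-1.94 ± 0.17, SE, n = 2 pairs; limma adjusted p 0.0476), and none rose. Ctsk, a cathepsin of osteoclasts and fibroblasts that cleaves collagen, was at 11.04 and 9.11 in SACCs, against 7.81 and 8.88 in controls, with ratios of 3.23 and 0.23. Epdr1, a lumenal lipid-binding protein, had ratios of 1.45 and 1.44 (limma adjusted p 0.0519), and the cysteine cathepsin Ctso -1.25 and -1.41. The osteoclast phosphatase Acp5 had ratios of 3.17 and -1.16, and Ctss, a cathepsin of antigen-presenting cells, -1.05 and -1.1. In the ES pair 4 of 7 osteoclast markers were at least 2-fold higher, and in the plain pair 1 of 7 was. Their medians were 1.55 and -0.29, and none passed in limma (2 higher at an unadjusted p under 0.05, background 12.1%). In both pairs 2 were higher and 1 lower, Calcr, with ratios of -0.28 and -0.29. Tcirg1 and Atp6v0d2, pump subunits of osteoclasts and macrophages, had ratios of -0.6 and -1.74 in the ES pair. Of the 7 markers, Acp5 among them, 4 lay above the array median on all 4 arrays and 1 on none. The summed linear level of these 7 was 2177 and 981 on the SACC arrays, against 489 and 1104 on the control arrays, and their part in the Ctsk and Acp5 ratios was not tested. Neutrophil markers were also at least 2-fold higher for 4 of 8 in the ES pair, at medians of 1.27 and -0.38. In the plain pair 2 of 8 were at least 2-fold higher and 3 at least 2-fold lower. Camp was the only neutrophil marker at least 2-fold higher in both pairs, and it alone rose in limma (adjusted p 0.0487). Only 3 of the 8 neutrophil markers lay above the array median on all 4 arrays, and 1 lay above it on none. The summed linear level of the 8 neutrophil markers was 930 and 2517 on the SACC arrays, against 168 and 4138 on the control arrays.

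Of 28 further lysosomal membrane proteins 17 were lower and 7 higher in both pairs (medians -0.4 and -0.64), and none passed in limma. At an unadjusted p under 0.05, limma had 13 lower (background 8.78% of all genes) and 4 higher (background 12.1%). Laptm5, a leukocyte protein of lysosomes, had ratios of -2.28 and -1.4, against 1.3 and 1.13 for its relative Laptm4b. Cln3 had -1.43 and -1.97, the peptide transporter Slc15a3 -1.27 and -1.96 and the metal transporter Slc11a1 -1.45 and -1.68. Among 14 further proton pump subunits 12 were lower in both pairs, with medians of -0.44 and -0.71. Atp6v0a1 was at 6.85 and 7.11 in SACCs, against 8.89 and 9.08 in controls, and fell 4.01-fold (-2 ± 0.16, SE, n = 2 pairs; limma adjusted p 0.0476). Atp6v0d2, a subunit of osteoclasts and macrophages, was at 7.7 and 7.93 in SACCs, against 9.44 and 11.03 in controls, with ratios of -1.74 and -3.1 (limma adjusted p 0.0812). Atp6v1b2 and Atp6v1c1, subunits of the catalytic sector, had mean ratios of -1.2 and -1.

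Genes that control lysosome formation and nutrient sensing were lower in both pairs for 11 of 17, at medians of -0.46 and -0.54. The 4 that were higher in both pairs were Rraga, Mtor, Rptor and Zkscan3, with mean ratios of 0.44, 0.27, 0.1 and 0.44, and none of these passed in limma. Fnip2, a partner of folliculin, fell 3.78-fold (-1.92 ± 0.17, SE, n = 2 pairs; limma adjusted p 0.0476). Of the relatives of TFEB, Mitf had ratios of -1.49 and -1.14 and Tfec -0.6 and -1.86. Rragd, a GTPase of the mTOR complex on lysosomes, had -1.44 and -1.52 (limma adjusted p 0.0508). Among 15 genes of enzyme sorting 8 were lower and 2 higher in both pairs, at medians of -0.11 and -0.43, with none past the limma test. Those with an unadjusted p under 0.05 were 5 lower and 1 higher (backgrounds 8.78% and 12.1% of all genes). The mannose 6-phosphate receptors were at opposite signs, with 0.61 and 0.45 for Igf2r and -0.51 and -0.69 for M6pr, and the adaptor subunit Ap1b1 had -1.7 and -0.98. Vps26a, of the retromer, had ratios of -0.8 and -0.91, and the sorting receptor Sort1 -0.42 and -1.02.

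Autophagy genes had medians of -0.08 and -0.3, and 7 of 18 were lower and 4 higher in both pairs. None passed the limma test, with 3 lower and 2 higher at an unadjusted p under 0.05 (backgrounds 8.78% and 12.1% of all genes). Wipi1, a phosphoinositide-binding protein of forming autophagosomes, had ratios of 1.12 and 0.85, Atg7 -0.86 and -0.61, Vps18 -0.33 and -0.95 and Map1lc3a 0.32 and 0.91. Of 7 cathepsin inhibitors 4 were lower and 2 higher in both pairs and none passed in limma. Of these 7, 2 were lower and 1 higher at an unadjusted p under 0.05, with the same backgrounds. Cst3, the secreted cystatin C, had ratios of -0.7 and -1.09, Stfa3 1.72 and 1.32, Serpina3g 1.7 and 0.29 and Cst7 -1.46 and 0.04. Stfa3 was above the array median on only 2 arrays and Cst7 on only 3.

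**Figure D5:**
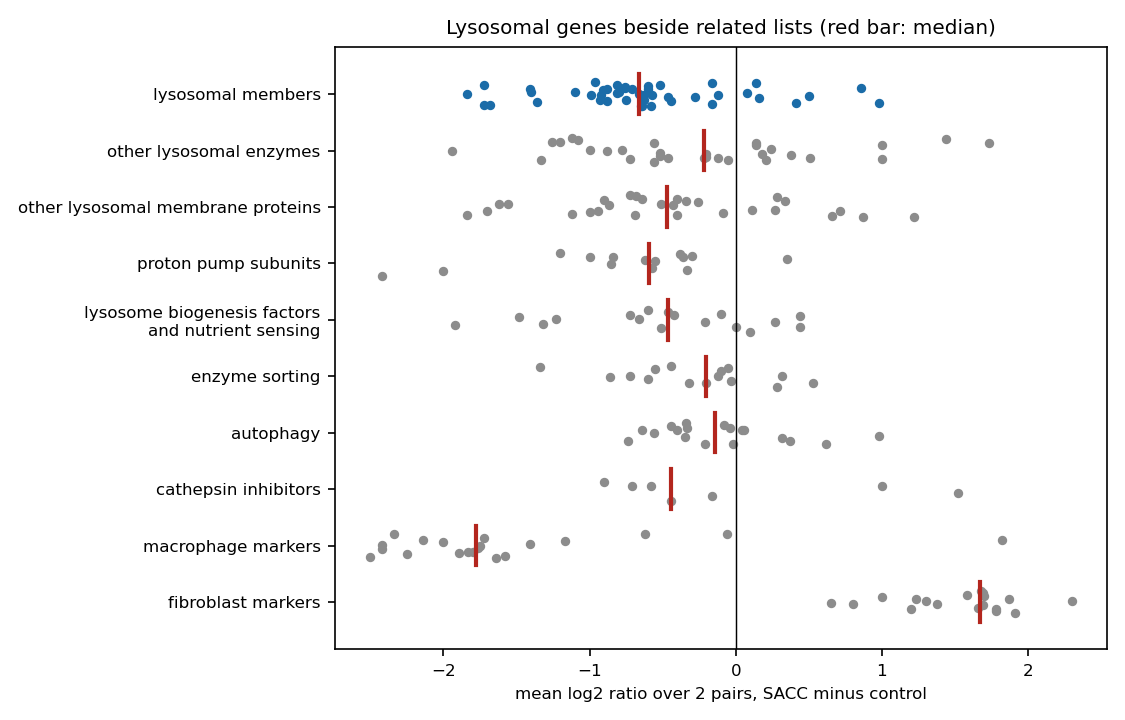
Mean log2 ratio over the 2 pairs (x axis) of each gene in 10 lists, with a red bar at the median of the list and points spread vertically only for legibility. The lysosomal genes have a median of -0.66, the autophagy genes of -0.14, the macrophage markers of -1.78 and the fibroblast markers of 1.67.

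Each pair holds 1 array per group, so differences between the pairs are given without a test. At least 2-fold lower were 8 lysosomal genes in the ES pair (background 4.08% of all genes) and 16 in the plain pair (background 5.19%), of which 6 were so in both (background 2.68%, and 4.15% of genes above the median on all arrays). At least 2-fold higher were 1 in the ES pair (background 6.51%), 2 in the plain pair (background 6.01%) and 0 in both (background 3.38%). The 6 lower in both were Gpnmb, Cd68, Man2b1, Lipa, Sgsh and Pla2g15. The further probe sets of Gpnmb and Lipa were also at least 2-fold lower in both pairs. Those of Man2b1 (-1.39 and -0.93), Sgsh (-0.21 and -0.24) and Pla2g15 (-0.07 and -1.26) were not. The latter 2 probe sets lay above the array median on only 2 arrays each. In the plain pair 31 of the 45 ratios were below those of the ES pair, as were 50.3% of all genes, and the mean difference of ES minus plain ratio was 0.18. Among the members the widest gaps were those of Gla (1.48), Arsb (1.23), Gusb (1.1) and Galns (1.03) in this direction, and of Dnase2a (-1.57), Gaa (-0.72), Lamp2 (-0.53) and Pla2g15 (-0.49) in the other. In 17 genes the pairs agreed within 0.2. The Pearson correlation between the pairs, over 45 genes that share the same 4 arrays, was 0.701, and over all genes it was 0.661. Which part of these gaps goes with the medium of the SACCs and which with the culture cannot be told apart.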

How the data were processed

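Total RNA of 4 samples, 2 of SACCs and 2 of controls, was measured on Affymetrix arrays with biotinylated cRNA, per the labels' protocols. The authors deposited log2 values for each probe set, with 1 SACC and 1 control array in each of 2 tables. A table of all 4 arrays held the same values. Per the submitters' processing notes, Transcriptome Analysis Console was used (version not given). How probes were summarised and normalized, and the build, is not given in the sources used here. Array medians were 4.34 to 4.59. Sorted values differed by at most 0.14 and 0.2 within a table and by 0.27 to 0.32 between tables, so the tables appear normalized separately and ratios were taken within a table. Correlations between arrays were 0.946 to 0.972, so none were duplicates. Precision is limited by the number of arrays.

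The test was limma 3.58.1 under R 4.3.3 (lmFit, eBayes; terms for group and pair), Benjamini-Hochberg adjustment over all 45037 probe sets, threshold 0.05. It left 1 residual degree of freedom, and the prior had 2.97 degrees of freedom and an SD of 0.181, so a standard error draws on all probe sets. The pairing comes from the labels and was not tested on the values. Genes were named by list, and every lysosomal gene was named. Full array values were given for the 3 past the test and the 6 lowest and 6 highest mean ratios. They were also given for the 4 widest gaps between pairs each way. In the other pathway lists up to 4 genes with the largest absolute mean ratio were named, and those past the test. Cell type markers were given mainly as counts, and most of those past the test were not named. The osteoclast markers were not among the cell types planned. The further probe sets of Ctsb, Ctsl, Npc2, Lamp2, Gpnmb, Lipa, Man2b1, Sgsh, Pla2g15, Scarb2, Gaa and Smpd1 were described after their values were seen. So were the genes Ctss, Acp5, Laptm4b, Igf2r, Itgax, Rraga, Mtor, Rptor, Zkscan3, Camp, Marco, Cd163 and Calcr. Alternatives were the fit without the block, other scalings, filters, eBayes settings, thresholds, probe set rules and leaving out each array. Members and lists were chosen with earlier results of these data known.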

Additional observations from a re-analysis of the deposited data

Results flagged for a closer look

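In 5 lysosomal genes the SACC array was higher than its control in one pair and lower in the other, a difference that was not tested because each pair holds 1 array per group. The ES minus plain gap in log2 ratio was 1.23 for Arsb (0.7 and -0.53), 0.39 for Atp6v1h (0.07 and -0.32), 0.38 for Glb1 (0.33 and -0.05), -0.53 for Lamp2 (-0.11 and 0.42) and -1.57 for Dnase2a (-0.28 and 1.29). Opposite signs were seen in 31.4% of all genes.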

How the results depend on the processing

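All 3 calls depend on how the test was set up. No lysosomal gene (0 lower, 0 higher) and no probe set (0) passed in limma without the replicate block, that is without the pair as a term (3497 probe sets at an unadjusted p under 0.05), or with each array centred on its median (0 and 0, with 7405). Leaving out 1 array, which needs limma without the block and assumes the lone sample varies like the others, gave 0 to 0 lysosomal genes lower and 0 to 0 probe sets (2264 to 3535 unadjusted), with a median lysosomal ratio of -0.76 to -0.57; the ratio of Gpnmb was then -2.27 to -1.42, of Cd68 -2.36 to -1.08 and of Lipa -2 to -1.37. Calls grew under other settings. Quantile normalization over 4 arrays gave 8 lower, 1 higher (Scarb2) and 2045 probe sets; eBayes robust gave 10, 1 and 2623; an adjusted p of 0.10 gave 7, 1 and 2188. Probe sets above the median gave 5 lower and 1326 probe sets. Averaging all probe sets of each gene gave 5 lower and 877 genes, and 1 probe set per gene 6 lower and 1023 genes. With a trend, eBayes gave 4 lower and 898 probe sets. The fit reported above gave 3 lower, 0 higher and 587 probe sets. These alternatives, apart from the block, the centring and the left-out arrays, kept Gpnmb, Cd68 and Lipa among the genes called lower. The median lysosomal ratio, -0.66, lay between -0.76 and -0.57 under all alternatives run. Counted at 1.5-fold, 20 genes were lower in the ES pair, 29 in the plain pair and 15 in both. At 3-fold these were 4, 5 and 3. The share of all genes was not counted at 1.5-fold or 3-fold, so these counts have no background to be read against. Chosen after seeing the data, counting a gene by any of its probe sets gave 4 lower, adding Ctsb, and the second-brightest probe set gave 2 lower and a median of -0.64. By mean ratio 38 of the 45 genes were lower, and 37 to 40 when 1 array was left out.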
